A study of Mus musculus and Homo sapiens with 4 samples.

Results

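Mouse embryonic fibroblasts (MEFs) lacking Neat1 were compared with wild-type (WT) MEFs by RNA sequencing, and the 22262 autosomal entries of the expression tables were examined. These are the entries that the coordinates place on chromosomes 1 to 19, out of 23329 entries in all, and the 1028 entries on X and 39 on Y were set aside. The comparison uses 2 of the 4 libraries of the series, 1 labelled MEF WT and 1 labelled MEF NEAT1 KO, and the other 2 are from a human prostate cancer cell line. Per the labels, both MEF lines came from E13.5 embryos of C57BL/6 mice, either WT or NEAT1 KO, and were used at passages 2 to 3. Both were grown in a 1:1 mixture of DMEM and Ham's F12 with 10% foetal calf serum, and poly-A RNA was sequenced. The labels name no treatment, and they do not give the deleted part of the allele, the number of embryos behind each line or their sex. With 1 library per genotype no difference has a replicate check, so no test was made and no P value is given. Each gene is described by its RPKM value (reads relative to transcript length and to the number of mapped reads) in the WT and in the KO library, and by its log2 ratio, which is log2 of KO RPKM plus 1 over WT RPKM plus 1. A difference between 2 cultures of different genotype cannot be told apart here from a difference between cultures of the same genotype. In bulk RNA, fewer cells of a type and less RNA per cell cannot be told apart either.

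Neat1 is a nuclear long non-coding RNA that forms the scaffold of paraspeckles, bodies between the chromatin masses that hold RNA-binding proteins such as Sfpq, Nono and Pspc1. Its neighbour on the chromosome, Malat1, is an abundant nuclear RNA of a different body, the nuclear speckle. Type I interferons act through the receptor chains Ifnar1 and Ifnar2 and transcription factors such as Stat2 and Irf9, which bind the interferon-stimulated response element in the promoters of antiviral genes. NF-kappaB proteins bind a different promoter element and turn on cytokines, chemokines and their own inhibitors.

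The label of the KO library was checked first. Neat1 (chromosome 19, 5842301 to 5845478, in the coordinates of the files, which match build mm10) had 29.5 RPKM in WT and 2.01 RPKM in KO, which is 6.82% of the WT level and the lowest log2 ratio of all autosomal entries (-3.34). The cells carried the RNA of fibroblasts in both cultures, since 16 (WT) and 17 (KO) of 17 fibroblast markers reached 1 RPKM, with Fap at 0.994 RPKM in WT. Col1a1 had 1477 RPKM in WT and 1874 RPKM in KO, and Vim had 3151 and 2448 RPKM. The libraries differed in the transcripts of the sex chromosomes: Xist, the RNA of the inactive X chromosome, had 28.6 RPKM in WT and 0.04997 RPKM in KO, while the Y-linked Eif2s3y was listed at 0 in WT and had 6.30 RPKM in KO. Sex-chromosome content and genotype therefore cannot be told apart in any difference below. The low values fall on whole multiples of a step for 31.8% (WT) and 33.4% (KO) of the entries at 1 to 8 steps, which gives an estimate of 62900000 (WT) and 59200000 (KO) mapped reads. At this depth the median counting error of a log2 ratio was 0.0932 for entries with a mean of 1 to 5 RPKM and 0.0208 at 100 RPKM or more, and it covers counting error only.

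Most autosomal entries had similar values in the 2 libraries, and differences were graded. At least 1 RPKM in both libraries was reached by 10563 entries, with a median log2 ratio of -0.06 and 60.6% of them lower in KO, and 90% of them lay between -0.54 and 0.49 (percentiles 5 and 95). Of all entries, 665 had a log2 ratio above 0.5 (2.99% of all autosomal entries), above 1 by 222 (0.997%) and above 2 by 50 (0.225%). In the opposite direction 826 entries were below -0.5 (3.71%), 75 below -1 (0.337%) and 2 below -2 (0.00898%). With a pseudocount of 1 the higher side thus reached larger sizes. In these values as deposited, the lower side held more entries of small size. This excess of lower entries reversed after centring on the median of expressed entries, with 772 above 0.5 and 622 below -0.5. With a pseudocount of 0.1 the excess of higher entries past 1 was absent, with 486 above 1 and 511 below -1. It remained past 2, with 114 above 2 and 53 below -2. The 443 entries between 0.5 and 1 had medians of 4.89 RPKM in WT and 8.48 RPKM in KO, and the 50 above 2 had 2.48 and 25.4 RPKM. The 751 entries between -1 and -0.5 had medians of 5.18 and 2.84 RPKM.

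**Figure D1:**
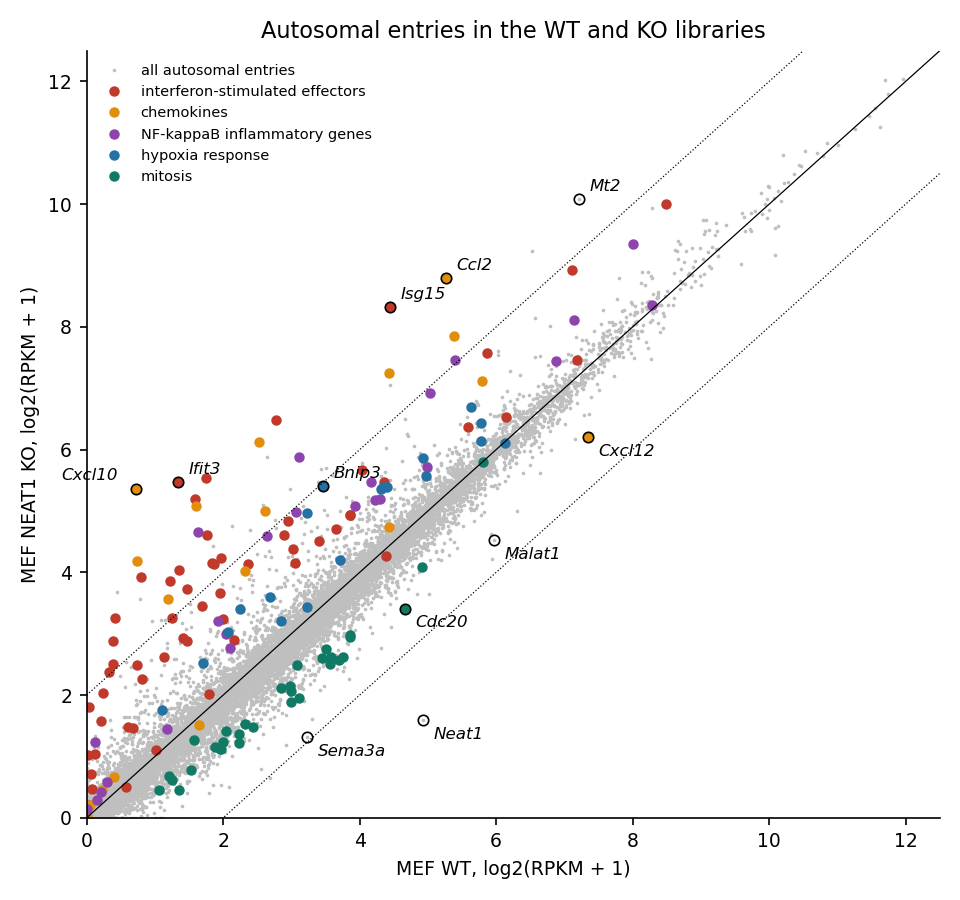
Each point is 1 autosomal entry, with log2(RPKM + 1) in the WT library on the x axis and in the KO library on the y axis; the solid line marks equal values, the dotted lines log2 ratios of 2 and -2, colours mark 5 gene lists and rings the genes named. Interferon-stimulated effectors, chemokines and NF-kappaB genes lie mostly above the line, mitosis genes below it, and Neat1 (29.5 and 2.01 RPKM) lies farthest below.

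The balance of higher and lower entries moved with the level. Among the 3277 entries with a mean of 1 to 5 RPKM, 5.61% were above 0.5 and 11.0% below -0.5. Among the 576 entries with a mean of 100 RPKM or more, 8.33% were above 0.5 and 2.26% below -0.5. Past 0.5, abundant transcripts were therefore more often higher than lower in KO, and scarce transcripts the reverse. At larger sizes, with the pseudocount of 1, scarce transcripts did not show the reverse: at 1 to 5 RPKM, 1.86% were above 1 and 0.915% below -1.

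**Figure D2:**
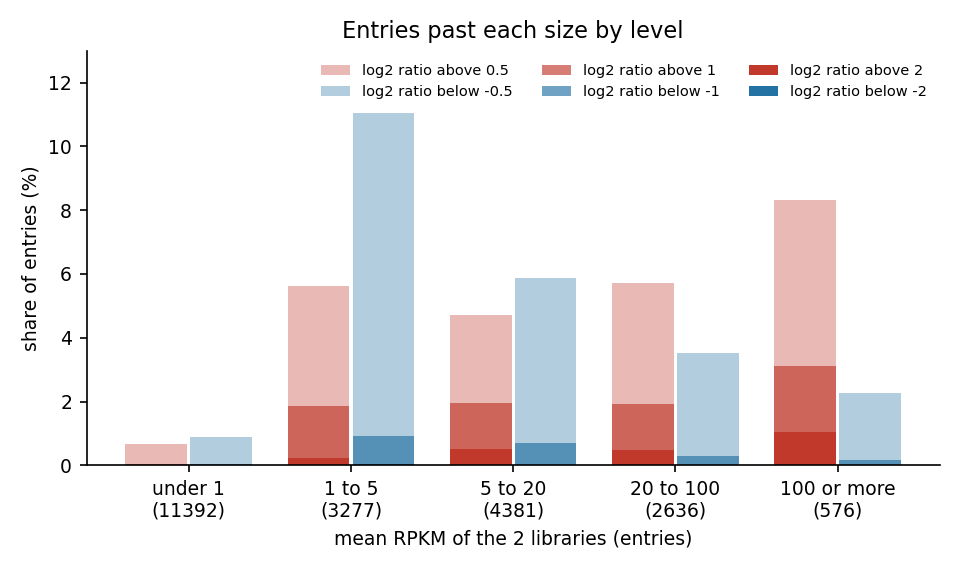
Bars give the share of autosomal entries (y axis, percent) past each log2 size in 5 classes of mean RPKM (x axis, number of entries in parentheses), red for higher and blue for lower in KO; bars start at 0 and darker bars of larger sizes are drawn over paler bars that include them. Lower entries prevail at 1 to 5 RPKM (11.0% against 5.61%) and higher entries at 100 RPKM or more (8.33% against 2.26%).

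Genes were then grouped in 45 lists by function. These lists were chosen with earlier results of these data known, so their ranking is a description only. Their medians ran from 2.04 for chemokines to -0.84 for mitosis, beside a median of 0 over all autosomal entries and -0.06 over those with 1 RPKM in both libraries. Lists with a median above 0.5 were chemokines, interferon-stimulated effectors, NF-kappaB genes, the hypoxia response, MHC class I presentation and glycolysis, and mitosis and DNA replication were below -0.5. Of the 50 entries above 2, 31 belonged to the lists of interferon signalling, effectors, MHC class I and chemokines. Of the 665 entries above 0.5 these lists held 83, and 445 stood in no list.

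**Figure D3:**
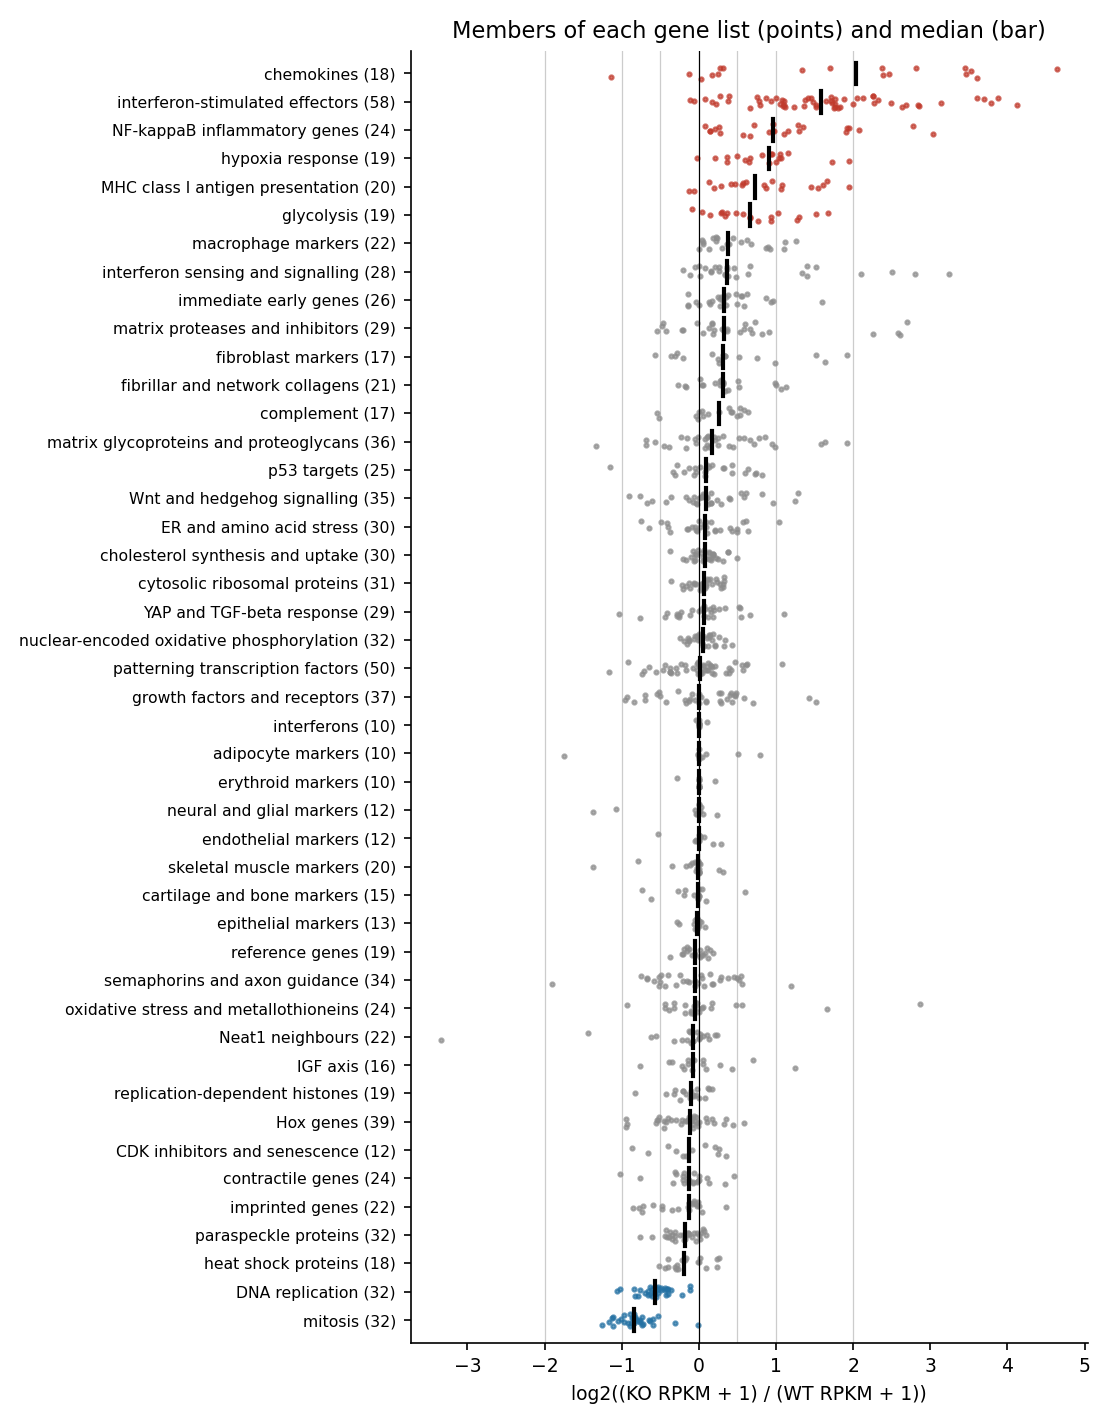
Each point is 1 autosomal member of a gene list (rows, number of members in parentheses), with its log2 ratio of KO over WT on the x axis, and black bars are the medians; red lists have a median above 0.5 and blue lists below -0.5. The lists are ordered by median, from chemokines (2.04) at the top to mitosis (-0.84) at the bottom. Grey lists have medians from -0.5 to 0.5, and most hold members of both directions, but all 22 macrophage markers were higher.

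The ligands of the interferon pathway were scarcely seen, while its late components were higher in KO. None of 10 interferon genes reached 1 RPKM in either library, and Ifnb1, the type I interferon made by fibroblasts, was listed at 0 in WT and had 0.0758 RPKM in KO. The receptor chains differed little, with Ifnar1 at 15.2 and 18.4 RPKM (0.26) and Ifnar2 at 11.1 and 15.6 RPKM (0.45). Jak1, a kinase bound to the receptors, had 42.2 and 44.4 RPKM (0.07).

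In the list of sensing and signalling genes, 10 of 28 were above 0.5 and 4 above 2, with none below -0.5 and a median of 0.37. Irf7, a transcription factor that amplifies interferon production, had 5.24 RPKM in WT and 58.1 RPKM in KO (3.24). Stat2 had 5.75 and 27.8 RPKM (2.10), and its partner Irf9 10.5 and 29.5 RPKM (1.40). The cytosolic RNA sensors were also higher, with Dhx58 at 0.712 and 10.9 RPKM (2.80), Ifih1 at 1.67 and 6.62 RPKM (1.51) and Ddx58 at 8.72 and 24.6 RPKM (1.40). By contrast, constitutive components upstream of interferon production differed little: Irf3 had 21.5 and 21.6 RPKM (0.00), Tbk1 6.72 and 6.80 RPKM (0.02) and the adaptor Mavs 14.4 and 12.4 RPKM (-0.20). The feedback inhibitors Socs3 (7.87 and 21.3 RPKM, 1.33) and Socs1 (4.58 and 7.68 RPKM, 0.64) were in the class between 0.5 and 2.

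The interferon-stimulated effectors, which act against viruses, had more members past 0.5 than any other list. Of 58 autosomal members 50 were above 0.5, 43 above 1 and 18 above 2, none was below -0.5, and the median was 1.58. Their summed level was 1023 RPKM in WT and 3147 RPKM in KO. Ifit3, an inhibitor of viral translation, had 1.53 RPKM in WT and 43.2 RPKM in KO (4.13), and Ifit1 of the same family had 2.37 and 45.4 RPKM (3.79). Isg15, a ubiquitin-like protein attached to other proteins, had 20.8 and 319 RPKM (3.88), and Usp18, the enzyme that removes it, 5.85 and 88.0 RPKM (3.70). The estimated number of read pairs behind Ifit3 was 84.1 in WT and 2235 in KO, with a counting error of 0.0998 on its log2 ratio.

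Below these extremes the differences were graded. Between 0.5 and 2 lay 32 members, among them the abundant membrane proteins Ifitm3 (358 and 1024 RPKM, 1.51) and Bst2 (137 and 488 RPKM, 1.82), and the RNA-editing enzyme Adar (11.6 and 25.2 RPKM, 1.06). Within 0.5 of 0 lay 8 members: Ly6e had 69.7 and 91.1 RPKM (0.38), Ifitm2 145 and 175 RPKM (0.27), and Samhd1, a nuclease of nucleotides, 19.8 and 18.2 RPKM (-0.12). Ifit2, next to Ifit3 and Ifit1 on chromosome 19, had 2.47 and 3.05 RPKM (0.22), unlike its neighbours. Some classical effectors stayed scarce in KO despite a higher value, with Mx1 at 0.0149 and 1.02 RPKM and Rsad2 at 0.0253 and 2.50 RPKM, the latter from an estimated 3.01 read pairs in WT. Among signalling genes and effectors, Ifnar1, Ifnar2, Irf9, Ifih1, Ddx58, Socs1, Socs3, Adar, Ly6e, Mx1 and Rsad2 were chosen for the text after their values were seen, and so were H2-K1, Cxcl5, Nfkbia, C3, Ptprc and Csf1r in the lists that follow.

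The promoters of the genes with the highest log2 ratios were read from RefSeq (build GRCm38.p6), which gave a window of 250 bases before to 50 bases after the start for 16858 of the 22262 entries. The core of the interferon-stimulated response element was searched on both strands as GAAA, any 2 bases and GAAA, and 3.99% of the 27025 genes with a window hold it. The 250 bases before the start of Isg15 (chr4:156200819-156201068, minus strand), Ifit3 (chr19:34583279-34583528, plus strand), Ifit1 (chr19:34640639-34640888, plus strand) and Cxcl10 (chr5:92348890-92349139, minus strand) are shown because these are genes with the largest log2 ratios, with each match on either strand in capitals.
Isg15: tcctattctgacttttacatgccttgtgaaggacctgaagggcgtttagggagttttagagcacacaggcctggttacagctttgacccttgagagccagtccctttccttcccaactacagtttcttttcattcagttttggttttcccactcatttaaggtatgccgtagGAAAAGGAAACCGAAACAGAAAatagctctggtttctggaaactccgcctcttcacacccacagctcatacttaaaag
Ifit3: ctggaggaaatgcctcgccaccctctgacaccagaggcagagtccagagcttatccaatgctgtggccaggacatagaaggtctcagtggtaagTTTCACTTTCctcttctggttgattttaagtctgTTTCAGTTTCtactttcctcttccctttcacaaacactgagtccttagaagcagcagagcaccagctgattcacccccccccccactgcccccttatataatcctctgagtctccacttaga
Ifit1: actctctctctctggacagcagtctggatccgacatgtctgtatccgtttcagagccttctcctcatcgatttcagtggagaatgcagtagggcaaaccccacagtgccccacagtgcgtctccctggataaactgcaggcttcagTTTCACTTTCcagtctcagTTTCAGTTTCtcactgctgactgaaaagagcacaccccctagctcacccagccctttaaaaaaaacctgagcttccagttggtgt
Cxcl10: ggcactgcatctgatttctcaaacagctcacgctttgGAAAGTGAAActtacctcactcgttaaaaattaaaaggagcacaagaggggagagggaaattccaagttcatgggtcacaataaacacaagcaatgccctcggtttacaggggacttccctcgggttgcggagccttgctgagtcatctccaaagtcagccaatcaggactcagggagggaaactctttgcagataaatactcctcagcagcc

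Isg15 holds 3 overlapping matches, the first of which begins 78 bases before the start. Ifit3 has 2 matches, beginning 156 and 122 bases before the start, Ifit1 has 2 at 104 and 85 bases, and Cxcl10 has 1 at 213 bases. Among lists of which at least 80% of members had a window, 5 of 25 sensing and signalling genes (20%) and 4 of 17 MHC class I genes (23.5%) held the motif. Only 43 of the 58 effectors (74.1%) had a window, and the same holds for each class of log2 ratio, so a share over them is void and is not given. A match is a description of letters and shows no binding.

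Antigen presentation by MHC class I was higher at intermediate sizes. Of 20 members 13 were above 0.5 and 7 above 1, all of them under 2, and none was below -0.5 (median 0.73). The class I chain H2-Q4 had 5.87 RPKM in WT and 25.4 RPKM in KO (1.94), and H2-K1 had 72.8 and 155 RPKM (1.08). Subunits of the immunoproteasome, which cuts the peptides, followed, with Psmb9 at 1.27 and 6.17 RPKM (1.66) and Psmb8 at 8.23 and 27.1 RPKM (1.61). The peptide pump subunit Tap1 had 10.1 and 31.4 RPKM (1.54). B2m, the invariant light chain, was abundant in both and differed less, at 527 and 729 RPKM (0.47). The general chaperones of the endoplasmic reticulum in the list were within 0.5 of 0, with Calr at 657 and 805 RPKM (0.29), Pdia3 at 313 and 298 RPKM (-0.07) and Canx at 143 and 131 RPKM (-0.13). Reads of the near-identical class I genes may be divided between them by the counting, so the value of a single H2 gene is uncertain.

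Chemokines, the secreted proteins that attract leukocytes, had the highest median of all lists (2.04), with 11 of 18 above 1 and 9 above 2. Cxcl10, which attracts T cells, had 0.648 RPKM in WT and 40.1 RPKM in KO (4.64), the largest log2 ratio of all autosomal entries. Its WT value rests on an estimated 22.3 read pairs and its log2 ratio has a counting error of 0.126. Ccl2, which attracts monocytes, was the most abundant of the higher chemokines, at 37.5 and 442 RPKM (3.52), and Ccl7 had 40.5 and 229 RPKM (2.47). The neutrophil attractants Cxcl1 (2.05 and 32.7 RPKM, 3.47), Cxcl2 (0.667 and 17.1 RPKM, 3.44) and Cxcl5 (20.6 and 151 RPKM, 2.82) were higher as well, as was Ccl20 (4.75 and 68.7 RPKM, 3.60). A single member lay below -0.5: Cxcl12, which fibroblasts make constitutively, had 161 RPKM in WT and 72.5 RPKM in KO (-1.14). Ccl25 and Cx3cl1 lay within 0.5 of 0, with 2.14 and 1.87 RPKM (-0.13) and 20.6 and 25.7 RPKM (0.31).

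All 24 members of the NF-kappaB list had a value in KO above that in WT, 18 of them above 0.5, 11 above 1 and 3 above 2 (median 0.96), and 23 of them did after quantile normalization. The cytokines Il6 and Lif led the list, with 2.09 and 24.4 RPKM (3.04) and 7.63 and 57.9 RPKM (2.77), followed by the secreted pattern-recognition protein Ptx3 with 41.0 and 176 RPKM (2.07). Adhesion molecules were between 0.5 and 2, with Icam1 at 5.24 and 23.03 RPKM (1.95). The inhibitor Nfkbia, itself a target of the pathway, had 31.6 and 121 RPKM (1.90). The acute-phase protein Saa3 was abundant in both libraries, at 256 and 654 RPKM (1.35), and Lcn2 had 141 and 276 RPKM (0.97). Csf1, a macrophage growth factor, had 311 and 328 RPKM (0.08).

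An NF-kappaB site was searched on both strands as GGGA, any base and TTTCC, or GGGA, any 2 bases and TTCC, a choice made after the values were seen, and 1.63% of genes with a window hold a match. Of 20 listed NF-kappaB genes with a window 4 (20%) did. The list was drawn up for this pathway, so its share says nothing about the log2 ratios. The 120 bases before the start of Cxcl1 (chr5:90891125-90891244, plus strand) and Il6 (chr5:30012994-30013113, plus strand) are shown as examples with large differences that hold a match, with matches in capitals. Not every large difference went with a match: Ccl20, with a higher log2 ratio (3.60) than either, had none in its window.
Cxcl1: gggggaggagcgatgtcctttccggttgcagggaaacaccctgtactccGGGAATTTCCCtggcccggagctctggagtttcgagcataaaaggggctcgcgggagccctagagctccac
Il6: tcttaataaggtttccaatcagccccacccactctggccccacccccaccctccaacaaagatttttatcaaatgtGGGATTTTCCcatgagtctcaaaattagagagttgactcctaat

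In Cxcl1 the matches on the 2 strands overlap and begin 71 and 70 bases before the start, and in Il6 the match begins 44 bases before it. Both genes lie on chromosome 5, which held 10 of the 50 entries above 2 and 1313 of all 22262 autosomal entries. Chromosome 11 held 10 of the 50 and 1746 of all. Among these were the chemokines Cxcl1, Cxcl2, Cxcl5 and Cxcl10 on chromosome 5 and Ccl2, Ccl5, Ccl7 and Ccl8 on chromosome 11.

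Macrophage markers were higher in KO, often at low levels. All 22 had a value in KO above that in WT. Some of them were under 1 RPKM in both libraries, where the direction says little, such as Mrc1 (0.0804 and 0.0817 RPKM). Of the 22, 9 were above 0.5, beside 2.99% of all autosomal entries, and 3 above 1. The summed level of the list was 27.1 RPKM in WT and 65.8 RPKM in KO. The lysozyme gene Lyz2 made up most of that sum, with 13.9 and 34.7 RPKM (1.26). Cd68 had 2.79 and 7.26 RPKM (1.12), and Cd14, a receptor for bacterial lipopolysaccharide, 1.67 and 4.73 RPKM (1.10). The defining leukocyte marker Ptprc stayed near 0, at 0.0449 and 0.0813 RPKM, and the macrophage receptor Csf1r had 0.521 and 0.775 RPKM (0.22). Whether macrophages were present in the cultures was not tested, nor was any part of them in the higher chemokines and interferon-stimulated genes. In complement, 4 of 17 genes were above 0.5 and 2 below -0.5, with C3 at 7.78 and 11.4 RPKM (0.50) and the inhibitor Serping1 at 12.3 and 18.2 RPKM (0.53).

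Most markers of other tissues were scarce, with exceptions in each of the bone, neural, muscle, epithelial and adipocyte lists. None of 10 erythroid markers, 2 of 12 endothelial and 3 of 13 epithelial markers reached 1 RPKM in a library, the highest being the keratin Krt19 (24.6 and 25.9 RPKM, 0.07). Among 20 skeletal muscle markers Acta1, the actin of muscle fibres, had 12.6 RPKM in WT and 4.26 RPKM in KO (-1.37), and the filament protein Des 6.28 and 3.20 RPKM (-0.79). Of 12 neural and glial markers 2 were below -1, the progenitor filament Nes with 31.4 and 11.6 RPKM (-1.37) and Stmn2 with 8.03 and 3.27 RPKM (-1.08), while Tubb3 had 35.9 and 36.1 RPKM (0.01). Among 15 cartilage and bone markers the secreted Spp1 was higher (1177 and 1788 RPKM, 0.60), and Col10a1 (38.1 and 24.4 RPKM, -0.62) and the bone factor Sp7 (2.85 and 1.31 RPKM, -0.73) were lower. Col2a1 (26.7 and 23.3 RPKM, -0.18), Runx2 (6.91 and 5.55 RPKM, -0.27) and Sox9 (6.70 and 6.39 RPKM, -0.06) of that list were expressed in both libraries too. Adipocyte markers pointed both ways, since the master regulator Pparg had 4.87 RPKM in WT and 0.745 RPKM in KO (-1.75) and the fatty acid carrier Fabp4 16.3 and 28.9 RPKM (0.79).

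**Figure D4:**
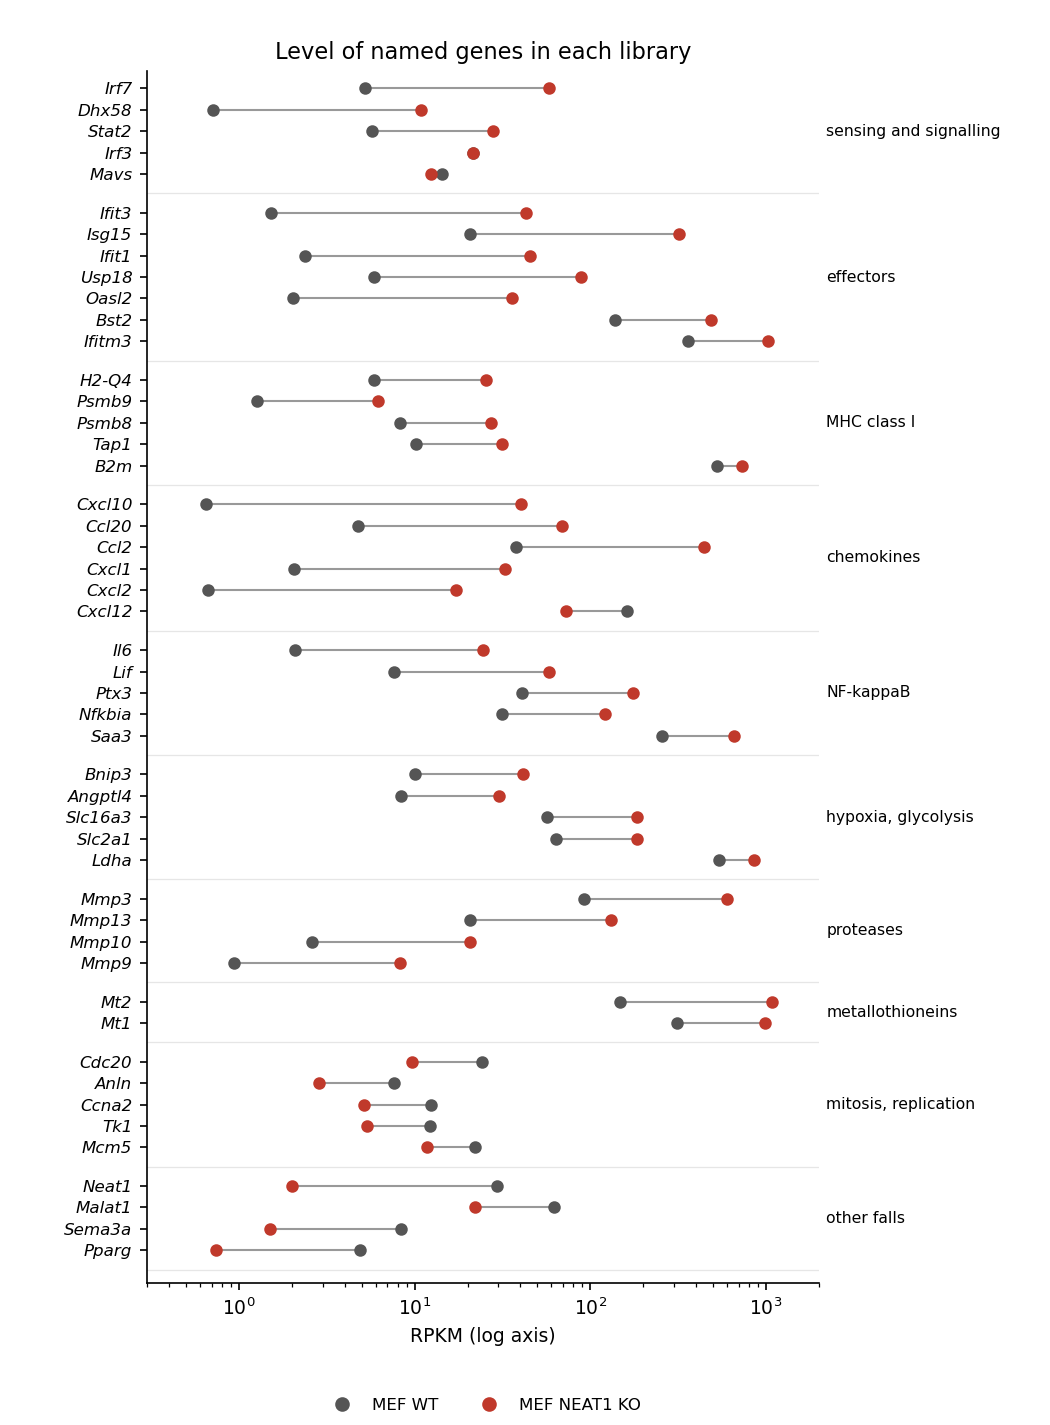
Each row is 1 gene, with its RPKM on a log axis in the WT library (grey) and in the KO library (red), grouped by list as named at the right. The KO value is to the right in the interferon, MHC class I, NF-kappaB, hypoxia, protease and metallothionein groups except for Mavs, Cxcl12 (161 and 72.5 RPKM) runs against the other chemokines, and mitosis and replication genes lie to the left in KO.

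Genes of the hypoxia response and of glycolysis were higher in KO at sizes between 0.5 and 2, and none of either list exceeded 2. Of 19 genes listed as targets of the hypoxia-inducible factors 14 were above 0.5 and 6 above 1 (median 0.91), and of 19 glycolysis genes 11 were above 0.5 and 5 above 1 (median 0.66). Neither list had a member below -0.5. Bnip3, which promotes removal of mitochondria, had 10.00 RPKM in WT and 41.3 RPKM in KO (1.94), and the lipase inhibitor Angptl4 8.40 and 30.2 RPKM (1.73). The oxygen-sensing hydroxylase Egln3 had 3.76 and 9.57 RPKM (1.15), and Hif1a itself, named after its value was seen, 30.4 and 46.6 RPKM (0.60). Among transporters, the lactate exporter Slc16a3 had 56.5 and 183 RPKM (1.68) and the glucose importer Slc2a1 64.1 and 185 RPKM (1.51). The regulatory enzymes Pfkfb3 (6.74 and 18.1 RPKM, 1.30) and Pdk1 (4.35 and 11.9 RPKM, 1.27) followed. Abundant enzymes differed less, with Ldha at 538 and 851 RPKM (0.66), Aldoa at 596 and 831 RPKM (0.48) and Pkm2 at 571 and 633 RPKM (0.15). Gapdh (111 and 105 RPKM, -0.09) and the lipid droplet protein Plin2 (69.1 and 67.7 RPKM, -0.03) were the lowest of their lists.

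The core of the hypoxia response element, searched on both strands as ACGTG after the values were seen, stands in 21.8% of all genes with a window. It was held by 14 of 16 hypoxia genes (87.5%) and 12 of 19 glycolysis genes (63.2%). The hypoxia genes were listed as targets of the hypoxia-inducible factors, so their share follows from the choice of list and says nothing about the log2 ratios. For comparison, it was held by 12 of 27 ER and amino acid stress genes (44.4%) and 9 of 30 paraspeckle protein genes (30%), whose median log2 ratios were 0.08 and -0.18. The 120 bases before the start of Bnip3 (chr7:138909507-138909626, minus strand), the highest of the hypoxia list, are shown with the 2 overlapping matches in capitals.
Bnip3: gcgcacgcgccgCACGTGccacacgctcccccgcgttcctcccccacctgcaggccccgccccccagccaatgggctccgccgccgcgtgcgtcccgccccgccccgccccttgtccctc

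Metallothioneins, small metal-binding proteins, stood apart from the rest of the oxidative stress list, whose median was -0.05. Mt2 had 148 RPKM in WT and 1086 RPKM in KO (2.87), the highest KO level among the 15 highest log2 ratios, and Mt1 had 309 and 984 RPKM (1.67). The lowest members of the list were Nqo1, Txnrd1 and Gclc, enzymes of redox and glutathione metabolism: Nqo1 had 34.6 and 17.7 RPKM (-0.93), Txnrd1 117.4 and 86.2 RPKM (-0.44) and Gclc 10.4 and 7.41 RPKM (-0.43). Nfe2l2, a transcription factor that these enzymes respond to, had 42.7 and 60.0 RPKM (0.48). Other genes of the list lay near 0, with the haem-degrading enzyme Hmox1 at 221 and 221 RPKM (0.00) and Srxn1, which repairs peroxiredoxins, at 40.9 and 40.3 RPKM (-0.02), both chosen after their values were seen. Of the 24 members 3 were above 0.5 and 1 below -0.5.

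The cell division genes had the lowest medians of all lists. All 32 mitosis genes had a value in KO under that in WT, 30 were below -0.5 and 7 below -1 (median -0.84), and their summed level was 284 RPKM in WT and 162 RPKM in KO. Cdc20, an activator of the complex that ends metaphase, had 24.3 and 9.61 RPKM (-1.25), a difference with a counting error of 0.0689. The cytokinesis proteins Anln (7.64 and 2.85 RPKM, -1.16) and Prc1 (11.9 and 4.96 RPKM, -1.12) and the cyclin Ccna2 (12.45 and 5.14 RPKM, -1.13) were also below -1. Bub3, a checkpoint protein, was the exception in level and difference, with 55.1 and 54.5 RPKM (-0.02), and it was the 1 member that turned to the higher side after centring on the median of expressed entries, which left 31 lower.

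In DNA replication all 32 genes had a value in KO under that in WT as well, but the sizes were smaller, with 20 below -0.5 and 2 below -1 (median -0.56). The nucleotide enzyme Tk1 had 12.2 and 5.33 RPKM (-1.06), the cyclin Ccne2 2.74 and 0.843 RPKM (-1.02), and the helicase subunit Mcm5 22.0 and 11.8 RPKM (-0.85). The most abundant member, the sliding clamp Pcna, had 60.0 and 51.2 RPKM (-0.22), and Tyms 5.32 and 4.82 RPKM (-0.12). Of 50 cell cycle genes below -0.5, 41 lay between -1 and -0.5, and 9 were below -1. Replication-dependent histones lack poly-A tails in the main, and 5 of 19 reached 1 RPKM in the poly-A libraries. Among them Hist1h2bc had 91.7 and 73.0 RPKM (-0.33), and Hist1h2ab had 2.83 and 1.15 RPKM (-0.83).

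The cell cycle homology region, which marks promoters of late cell cycle genes, was searched as TTTGAA on both strands after the values were seen. It stands in 20.2% of all genes with a window and was held by 20 of 27 mitosis genes (74.1%), and the 120 bases before the start of Cdc20 (chr4:118437344-118437463, minus strand) are shown as the mitosis gene with the lowest log2 ratio.
Cdc20: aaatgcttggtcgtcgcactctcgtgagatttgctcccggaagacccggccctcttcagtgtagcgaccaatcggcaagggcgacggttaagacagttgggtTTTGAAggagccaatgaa

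The match in Cdc20 begins 18 bases before the start. For comparison, the motif was held by 1 of 27 ER and amino acid stress genes (3.70%) and 7 of 30 paraspeckle protein genes (23.3%). The mitosis list was made by function, so its share says nothing about the log2 ratios. An E2F site was also searched on both strands, as TTTCCCGC or TTTGGCGC, and stands in 1.798% of all genes with a window. It was held by 0 of 27 mitosis genes, and the share over DNA replication genes is void, since 25 of 32 (78.1%) had a window. Inhibitors of the cell cycle did not move as a group. Cdkn1a, a target of p53 that blocks cyclin-dependent kinases, had 391 RPKM in WT and 609 RPKM in KO (0.64), but Cdkn2a had 51.2 and 32.1 RPKM (-0.66), Cdkn2b 43.9 and 33.0 RPKM (-0.40) and Cdkn1b 10.3 and 10.9 RPKM (0.07). Lmnb1, a lamin that is lost in senescent cells, had 14.2 and 7.32 RPKM (-0.87). In the list of 12 CDK inhibitor and senescence genes, which leaves out Cdkn1a because it was listed with the p53 targets, 2 were below -0.5 and none above 0.5 (median -0.12). Of 25 p53 targets 5 were above 0.5 and 1 below -0.5 (median 0.09). Btg2 (27.6 and 46.3 RPKM, 0.72) and the death receptor Fas (5.25 and 9.48 RPKM, 0.75) were among the higher and Perp (6.25 and 2.28 RPKM, -1.15) the lowest, while the apoptosis gene Bax had 185 and 186 RPKM (0.01). Cdkn1b was chosen after its value was seen.

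Matrix genes differed in both directions, with the proteases at the upper extreme. Of 29 proteases and inhibitors 12 were above 0.5 and 4 above 2, all of the last being matrix metalloproteinases: Mmp3 (91.5 and 600 RPKM, 2.70), Mmp13 (20.7 and 132 RPKM, 2.61), Mmp10 (2.59 and 20.5 RPKM, 2.58) and Mmp9 (0.936 and 8.25 RPKM, 2.26). The abundant inhibitor Timp2 had 462 and 403 RPKM (-0.20). The urokinase Plau had 72.3 and 51.8 RPKM (-0.47).

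Among 21 collagens 6 were above 0.5 and none below -0.5 (median 0.31). Col3a1 had 223 RPKM in WT and 442 RPKM in KO (0.98), Col8a2 9.53 and 22.0 RPKM (1.13) and Col1a2 605 and 753 RPKM (0.31). Matrix glycoproteins and proteoglycans were mixed, 11 of 36 being above 0.5 and 4 below -0.5. The small proteoglycans Lum (7.98 and 33.0 RPKM, 1.92) and Dcn (19.8 and 64.0 RPKM, 1.64), which bind collagen fibrils, were the highest, yet Ogn of the same family had 10.1 and 3.41 RPKM (-1.33). Fibronectin, Fn1, had 765 and 517 RPKM (-0.56), and the basement membrane protein Nid1 99.8 and 61.5 RPKM (-0.69).

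Contractile genes, which mark the myofibroblast state, differed little: 22 of 24 lay within 0.5 of 0, with Acta2 at 1769 and 1768 RPKM (0.00) and Tagln at 1318 and 1446 RPKM (0.13). The exceptions were the non-muscle myosin Myh10 (98.8 and 48.2 RPKM, -1.02) and calponin, Cnn1 (83.1 and 48.4 RPKM, -0.77). The small differences leaned lower, since 20 of the 24 contractile genes had a value in KO under that in WT. After centring 16 did and after quantile normalization 20. The median of the list was -0.13, beside -0.06 for expressed entries. In the list of YAP and TGF-beta response genes 22 of 29 were within 0.5 of 0. Ctgf had 1851 and 2049.8 RPKM (0.15), Tgfbi 16.5 and 36.6 RPKM (1.11) and Ankrd1 42.1 and 19.98 RPKM (-1.04).

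Hox and imprinted genes had mostly small differences, with more members lower than higher in KO, as was the case for 60.6% of entries with 1 RPKM in both libraries. Of 39 Hox genes 30 had a value in KO under that in WT (26 after centring, 25 after quantile normalization), 7 were below -0.5 and 1 above 0.5 (median -0.12), and the lowest were 3 members of the same cluster, Hoxa7 (8.66 and 4.00 RPKM, -0.95), Hoxa5 (7.62 and 3.48 RPKM, -0.95) and Hoxa3 (8.04 and 3.72 RPKM, -0.94). Hoxa11, named after its value was seen, had 8.84 and 8.49 RPKM (-0.05), and Hoxc11 0.584 and 1.39 RPKM (0.59). Among 50 other patterning factors En1 was the highest (2.71 and 6.83 RPKM, 1.08) and Osr1 the lowest (17.1 and 7.06 RPKM, -1.17). Of 22 imprinted genes 20 had a value in KO under that in WT (16 after centring or quantile normalization), 5 were below -0.5 and none above 0.5. The lower ones included Dlk1 (10.1 and 5.12 RPKM, -0.85), Rian (33.8 and 19.2 RPKM, -0.78) and Meg3 (13.3 and 7.72 RPKM, -0.72), which lie in 1 imprinted domain of chromosome 12.

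Guidance cues held the third lowest log2 ratio of all autosomal entries. Sema3a, a secreted repellent of axons, had 8.38 RPKM in WT and 1.496 RPKM in KO (-1.91). Sema3c had 7.01 and 3.78 RPKM (-0.75), Sema3e 3.24 and 1.84 RPKM (-0.58) and the receptor Nrp1 50.4 and 31.3 RPKM (-0.67). Of genes named after their values were seen, Sema3d (-0.67) and Sema3f (-0.49) were lower as well. By contrast, Sema3b (3.17 and 4.43 RPKM, 0.38) and the receptor Nrp2 (24.1 and 33.5 RPKM, 0.46) were higher. In the same list of 34 genes Slit3 had 23.5 and 55.0 RPKM (1.19), 8 genes were below -0.5 and 4 above 0.5. Among 35 Wnt and hedgehog genes the secreted Wnt antagonists Sfrp2 (3.81 and 10.7 RPKM, 1.29) and Sfrp1 (18.9 and 46.3 RPKM, 1.25) were the highest, and the antagonist Dkk2 the lowest (6.11 and 2.80 RPKM, -0.90). Of 37 growth factor and receptor genes 4 were above 0.5 and 8 below -0.5. The receptor Pdgfra had 4.18 and 13.8 RPKM (1.51) and the EGF receptor ligand Ereg 12.9 and 36.4 RPKM (1.42), against Bdnf with 13.004 and 6.18 RPKM (-0.96). In the IGF axis the binding protein Igfbp5 had 7.06 and 18.1 RPKM (1.25), Irs1 12.7 and 7.08 RPKM (-0.76) and Igf2 388 and 352 RPKM (-0.14).

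Paraspeckle proteins, the partners of Neat1, were slightly lower in KO. Of 32 genes 26 had a value in KO under that in WT (24 after centring or quantile normalization), beside 60.6% of all entries with 1 RPKM in both libraries, but 2 were below -0.5 and none above 0.5 (median -0.18, beside -0.06 for expressed entries). Matr3 had 24.2 RPKM in WT and 13.9 RPKM in KO (-0.76) and Srsf10 6.69 and 4.05 RPKM (-0.61). The core proteins Sfpq (46.4 and 37.4 RPKM, -0.30) and Pspc1 (12.7 and 12.4 RPKM, -0.04) remained expressed. Sfpq and Pspc1 were chosen for their role and named outside the rule on values.

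Within 1 Mb on either side of Neat1, 72 further entries reached 1 RPKM in at least 1 library, with a median log2 ratio of 0.03. Of these 72, 3 were above 0.5 and 7 below -0.5, and 2 were beyond 1 in either direction. Over all 11112 autosomal entries with 1 RPKM in at least 1 library, 632 were above 0.5 and 772 below -0.5. Malat1, the nearest expressed entry on 1 side, had 61.8 RPKM in WT and 22.1 RPKM in KO (-1.44), which is 35.7% of the WT level, and Frmd8 on the opposite side had 51.6 and 33.2 RPKM (-0.62). Fau, which encodes a ribosomal protein precursor and was named after its value was seen, had 19.8 and 48.5 RPKM (1.25). Rela, the gene of an NF-kappaB subunit in the same region, had 49.998 and 58.8 RPKM (0.23).

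**Figure D5:**
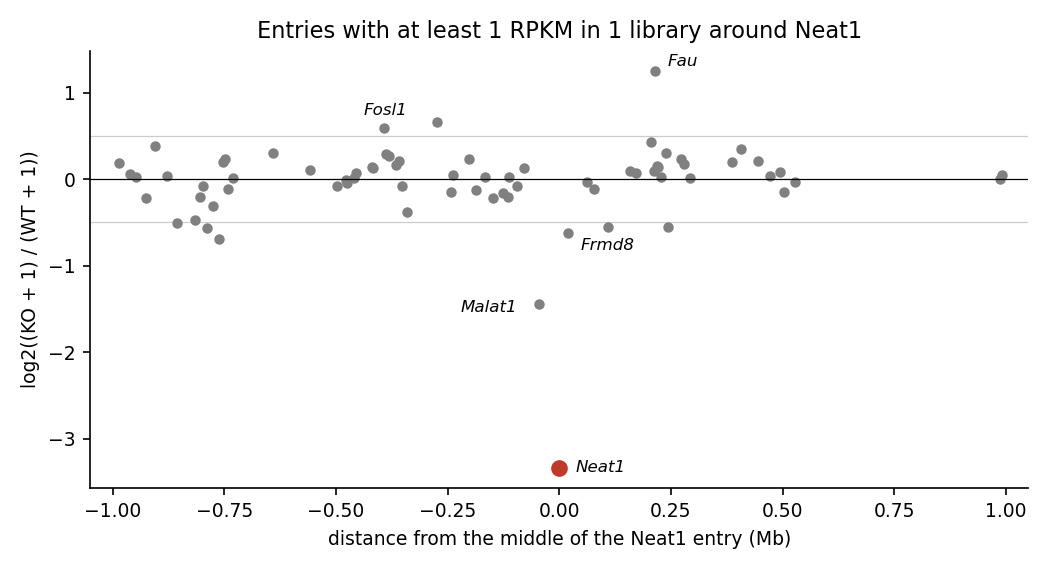
Points are the 72 entries with at least 1 RPKM in 1 library within 1 Mb of Neat1 (red), placed by distance from the middle of the Neat1 entry in Mb (x axis) and log2 ratio of KO over WT (y axis); grey lines mark 0.5 and -0.5. Neat1 (-3.34) and Malat1 (-1.44) are the lowest, Fau (1.25) the highest, and most others lie near 0.

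Several lists of general cell functions had no or few members past 0.5. None of 31 cytosolic ribosomal protein genes (median 0.07), 32 genes of oxidative phosphorylation (0.05), 30 of cholesterol synthesis and uptake (0.08) or 19 reference genes (-0.05) was beyond 0.5 in either direction, with Actb at 3410.4 and 3550.3 RPKM (0.06) and Rplp1 at 3306 and 4147 RPKM (0.33). Of 18 heat shock genes 1 was below -0.5, Hspd1 with 77.4 and 54.0 RPKM (-0.51), and the median was -0.20. Of 30 ER and amino acid stress genes 4 were above 0.5 and 2 below -0.5. The growth inhibitor Ddit4, also a hypoxia gene, had 18.97 and 40.1 RPKM (1.04), the ER chaperone Hspa5 533 and 751 RPKM (0.49), and the serine synthesis enzyme Phgdh 89.3 and 52.6 RPKM (-0.75). Immediate early genes, which respond first to stimulation, had a median of 0.33, with 8 of 26 above 0.5 and none below -0.5. Ier3 had 63.9 and 194 RPKM (1.59), Nr4a1 43.5 and 84.1 RPKM (0.93) and Junb 80.5 and 148 RPKM (0.87), while the phosphatase Dusp1 had 49.1 and 44.6 RPKM (-0.14).

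The largest differences also held genes of no list. I830012O16Rik, whose function is not stated in the sources used here, had 0.363 RPKM in WT and 11.8 RPKM in KO (3.23). It lies on chromosome 19 (34607956 to 34613401) between the effectors Ifit3 and Ifit1. Chosen after their values were seen, Slfn2 had 3.36 and 26.0 RPKM (2.63), the RNase Zc3h12a 6.89 and 39.8 RPKM (2.37), the cholesterol hydroxylase Ch25h 9.83 and 50.7 RPKM (2.25) and the extracellular superoxide dismutase Sod3 58.1 and 196 RPKM (1.74). On the lower side the matrix proteins Tinagl1 (60.1 and 17.6 RPKM, -1.72) and Efemp1 (13.4 and 3.82 RPKM, -1.58), the gap junction protein Gja3 (6.55 and 1.27 RPKM, -1.73) and the vesicle GTPase Rab3b (8.88 and 2.07 RPKM, -1.69) were among the 15 lowest.

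Short non-coding entries made up 60 of the 826 entries below -0.5, and their values are uncertain. Of 638 entries that span under 200 bases, 138 reached 1 RPKM in a library and 11 were above 0.5. They include the small nucleolar RNAs Snord47 (2.90 and 0.445 RPKM, -1.43), Snord22 (4.71 and 1.19 RPKM, -1.38) and Snora81 (2.45 and 0.329 RPKM, -1.38), whose mature forms carry no poly-A tail and lie within introns of other genes. The histone Hist1h2af (5.47 and 0.572 RPKM, -2.04), the only entry besides Neat1 below -2, is a member of a family of near-identical genes.

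Neither chromosome nor transcript length set the typical value apart by much. The median log2 ratio of entries with 1 RPKM in both libraries ran from -0.10 on chromosome 13 to -0.02 on chromosome 19. By transcript length, known for 97.7% of these entries, it was 0.03 for 743 entries of up to 1000 bases and -0.08 for 2041 entries of 4000 to 6000 bases. The share of entries above 0.5 was 6.999% in the shortest class and 3.56% among the 1237 entries of over 6000 bases.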

How the data were processed

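Poly-A RNA of WT and NEAT1 KO MEFs was sequenced, with 1 library per genotype. The authors computed and deposited RPKM values per gene entry, with CASAVA 1.8 and build mm10 per the submitters' processing notes. The counting tool, its annotation and its handling of reads that match several places are not given in the sources used here, and no normalization between libraries is stated. The starts of 68.4% of 20641 entries lay within 10 bases of the RefSeq gene start of GRCm38, the same build.

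The tables were joined on identifier and the log2 ratio was computed with a pseudocount of 1, which understates the difference of low entries. With 1 library a side there is no test, and an entry is counted by size (0.5, 1 or 2, either direction). Depth was estimated from the steps of low values, as the share within 0.02 of a whole multiple, using the lengths of annotated transcripts. Counting errors cover counting error only.

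The members and the 45 gene lists were chosen with earlier results of these data known. The text names the 15 largest rises and falls, and for each list the 4 highest and 4 lowest members with 1 RPKM in 1 library and the 3 most abundant, though some of these are not reported here. Of the listed genes 2 had no entry and 9 lie on X and were set aside. Alternatives were a pseudocount of 0.1, centring, quantile normalization and filters. Scripts were tested on simulated data. The scripts ran under Python 3.11.15 with pandas 2.3.3, numpy 2.4.6 and, for the plots, matplotlib 3.10.9.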

Additional observations from a re-analysis of the deposited data

Results flagged for a closer look

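The entries of the sex chromosomes, which the comparison of autosomes does not use, carried a signal that differed between the libraries. Of the 39 Y entries, 3 reached 1 RPKM in the KO library and none did in WT: Eif2s3y (0 and 6.30 RPKM), Kdm5d (0 and 1.96 RPKM) and Ddx3y (0.0174 and 4.18 RPKM). Xist had 28.6 RPKM in WT and 0.04997 RPKM in KO. The 325 X entries that reached 1 RPKM in WT and in KO had a median of -0.13 (log2 ratio), beside -0.06 over autosomal entries, and 48 of the 1028 X entries were below -0.5 and 10 above 0.5. The part of sex-chromosome content in the autosomal differences was not tested.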

How the results depend on the processing

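With a pseudocount of 0.1 in place of 1, the entries above 0.5, 1 and 2 numbered 1365, 486 and 114, and those below -0.5, -1 and -2 numbered 1990, 511 and 53, because the smaller pseudocount enlarges the ratios of scarce entries. Without the interferon, MHC class I and chemokine lists, 19 entries were above 2. The 2 entries below -2 became 1 after centring or quantile normalization and 4 with X and Y included. With at least 5 RPKM in 1 library, added after seeing the data, 437 entries were below -0.5. The other counts under these settings, with at least 1 RPKM in 1 library, with 1 entry per symbol and without entries spanning under 200 bases (also added later) stayed within 1.5 times their value. The balance of the 2 sides at 1 reversed with the pseudocount of 0.1. That at 0.5 reversed under other settings. After centring 772 entries were above 0.5 and 622 below -0.5, after quantile normalization 738 and 649, and with at least 5 RPKM 448 and 437. Of the 45 list medians, 45 moved by under 0.58 under centring and under quantile normalization, and 44 under the pseudocount of 0.1, where macrophage markers reached 1.06. With members of at least 1 RPKM, 42 of 43 did, the exception being neural and glial markers at -1.08, with 3 genes left. No value past 0.5 changed sign. Of 399 named genes, 19 moved by more than 0.58 with the pseudocount of 0.1, each to a larger size, and none under centring or quantile normalization. No paired analysis was possible because each group has 1 library. Depth limits entries under 1 RPKM most, and the spread between cultures is unknown.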
